A study of Mus musculus with 6 samples.

Results

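Smooth muscle type contractile genes code for the actins, actin-binding proteins and myosin subunits with which a smooth muscle cell generates force. Of the 28584 gene symbols with an expression value in mouse embryonic stem cells (mESCs), 10 were examined here: Acta2, Actg2, Tagln, Cnn1, Lmod1, Tpm1, Tpm2, Myl9, Mylk and Myh11. They were chosen on measured values of these libraries, because Acta2, Tagln, Cnn1 and Myl9 were higher with oncostatin M (OSM) than with leukemia inhibitory factor (LIF). The OSM-to-LIF values of the 10 genes are therefore given as a description with no test. Tests were made against cells grown with neither cytokine, whose libraries the choice did not use. The LIF and OSM libraries in those tests did enter the choice.

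Both LIF and OSM belong to the interleukin-6 family of cytokines, and the study asked whether OSM can take the place of LIF in keeping mESCs pluripotent. All groups came from 1 mESC line of a C57BL/6 and 129S6 cross (strain label C57BL6/129S6), grown first for 5 passages with serum and LIF on a layer of mitomycin C-inactivated mouse embryonic fibroblasts (MEF feeder cells). The line was then split into the same serum-containing basic medium with no cytokine (-LIF-ESCs), with 1000 U/mL LIF (LIF-ESCs) or with 10 ng/mL OSM (OSM-ESCs), and polyA RNA was sequenced after 10 passages (P10) from 2 replicates a group. Values written as without cytokine, with LIF and with OSM are those of these groups, replicate 1 before replicate 2. Whether feeder cells were present during those 10 passages is not given in the sources used here, and results from 1 line do not show how other lines would differ. Expression was deposited as TPM, a unit per gene length in which each library adds up to the same total, so that levels of different genes can be compared within a library. The reads recovered from these values came to between 20712941 and 28994417 a library, and the counting noise of those reads was smaller than the difference between replicates.

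In smooth muscle, calcium bound to calmodulin activates the myosin light chain kinase Mylk, which phosphorylates the regulatory light chain Myl9, so that the myosin heavy chain Myh11 pulls on filaments of the smooth muscle actins Acta2 and Actg2. Tagln, Cnn1, Lmod1 and the tropomyosins bind these filaments. Many of the genes are controlled by serum response factor (SRF), which binds the CArG box and works with the coactivators myocardin and the myocardin-related transcription factors. Acta2, Tagln, Myl9 and the tropomyosins are also expressed outside smooth muscle, for example in myofibroblasts, whereas Myh11 and myocardin mark differentiated smooth muscle more closely.

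The 6 mouse actin genes measured here code for very similar proteins, so the sequences that separate them bear on how the actin values can be read. The starts of the coding sequences of the 4 muscle actins follow in GRCm38 (GENCODE M21), 5′ to 3′, all from the minus strand, with every base that differs from Acta2 in an alignment in capitals. They lie at chr19:34252494-34252553 for Acta2, chr6:83527385-83527441 for Actg2, chr8:123893638-123893697 for the skeletal actin Acta1 and chr2:114051972-114052031 for the cardiac actin Actc1.
Acta2: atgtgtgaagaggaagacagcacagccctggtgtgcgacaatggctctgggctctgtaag
Actg2: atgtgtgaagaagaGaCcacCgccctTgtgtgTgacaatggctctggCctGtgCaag
Acta1: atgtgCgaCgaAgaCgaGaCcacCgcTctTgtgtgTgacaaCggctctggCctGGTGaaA
Actc1: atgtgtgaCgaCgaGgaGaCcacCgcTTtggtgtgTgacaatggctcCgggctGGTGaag

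Over this stretch Actg2 differed from Acta2 at 11 aligned positions, a gap of 3 bases included, Acta1 at 17 and Actc1 at 14. Over the whole coding sequence the identity to Acta2 was 84.2% for Actg2, 85.4% for Acta1 and 82.6% for Actc1. How reads that match several places were counted is not given in the sources used here, so part of an actin value may be read from a paralog, and the size of that share was not tested.

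Promoters of 7 of the 10 genes were in the RefSeq table used (GRCm38.p6), which holds 250 bases before to 50 bases after an annotated start. That start need not be the outer end of the gene. The matches below in Acta2, Tpm1 and Mylk lie inside the gene spans given further on, that of Mylk at chr16:34784782-34784807. Other starts of these genes were not searched. Tagln, Actg2 and Myh11 had no promoter there and were not searched. The CArG box, the SRF motif, was searched on both strands, first in its strict form and then, after the strict search was seen, with at most 1 G or C allowed among its middle bases. The strict form was found in Myl9 alone, 1 of 7, against 1.63% of 32851 promoters. The relaxed form was found in Acta2 and Myl9, 2 of 7, against 9.98% of all promoters. All windows that hold it are shown 5′ to 3′ on the strand of the gene with the box in capitals. In Acta2 (minus strand) they are chr19:34255438-34255467 and chr19:34255388-34255417, and in Myl9 (plus strand) chr2:156775293-156775322 and chr2:156775355-156775384.
Acta2, 84 bases before the start: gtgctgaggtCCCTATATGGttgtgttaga
Acta2, 34 bases before the start: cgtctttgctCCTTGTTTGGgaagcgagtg
Myl9, 161 bases before the start: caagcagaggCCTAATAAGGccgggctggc
Myl9, 99 bases before the start: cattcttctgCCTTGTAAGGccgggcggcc

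The letters GGAATG, which the TEAD factors bind, were found on either strand in 4 of the 7 promoters (Acta2, Lmod1, Tpm1 and Mylk) and in 14.7% of all promoters. In Acta2 the window was chr19:34255504-34255529 on the minus strand, and it does not overlap the CArG boxes.
Acta2, 146 bases before the start: gcagaacagaGGAATGcagtggaaga

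Such matches describe letters in a window and were not tied to the expression values.

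The 10 genes did not move as 1 group. Against -LIF-ESCs, the smooth muscle actins Acta2 and Actg2 were higher with either cytokine, and Cnn1 and Tpm1 were lower with either. Tagln was also lower with either, at -1.07 with LIF and -0.34 with OSM on the log2 scale. Myl9 was higher with either, at 0.62 with LIF and 1.36 with OSM. Tagln passed the fold limit given below with LIF alone, and Myl9 with OSM alone. Both genes were chosen on the distance between the cytokines, so nothing is read from which cytokine passed that limit. Mylk and Myh11 stayed at or near 1 TPM or below in every library. Of the 10 genes, 8 reached 1 TPM in at least 2 libraries and were tested among 18556 genes. Actg2 passed that minimum only through the libraries with a cytokine, so it had to differ, and it is left out of the counts and medians and given without a p. A gene was called at an adjusted p under 0.05 in limma and a fold change of 1 or more on the log2 scale, up or down.

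With LIF, 1 of the other 7 was called higher (Acta2) and 3 lower (Tagln, Cnn1, Tpm1), where 13.3% of all genes tested were called higher and 8.09% lower. With OSM, 2 were called higher (Acta2, Myl9) and 2 lower (Cnn1, Tpm1), beside 14.2% and 7.86% of all genes tested. The median log2 fold change of the 7 was -0.89 with LIF and -0.34 with OSM, and that of all genes tested was 0.165 and 0.182. Once libraries had been rescaled to a common median ratio, the medians of all genes were 0.0174 and 0.0199, and this rescaling changed the direction of no called member. It lowered the share of higher genes among all calls from 62.2% to 50.7% with LIF and from 64.3% to 52.1% with OSM. Both comparisons use the -LIF-ESCs libraries, so they are set side by side and not counted as independent. Acta2, Tagln, Cnn1 and Myl9 were chosen as higher with OSM than with LIF. The choice thus favoured lower values with LIF and higher values with OSM, and nothing is read from how the counts and medians differ between the cytokines. With 2 libraries against 2 the smallest two-sided p of an exact permutation test is 0.333, and the adjusted p-values depend on the spread that limma estimates over all genes.

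**Figure D1:**
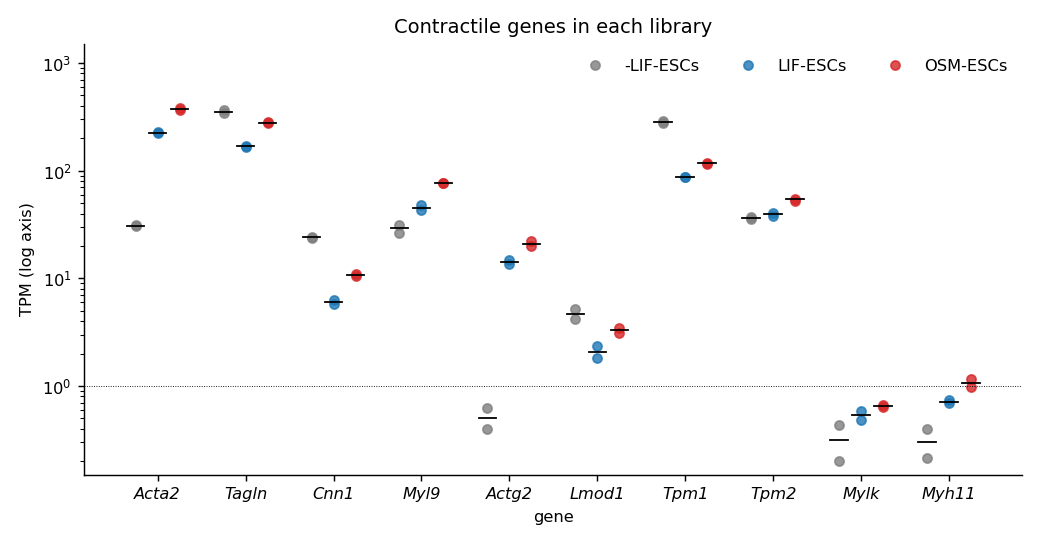
TPM of the 10 contractile genes in the 6 libraries (points, log axis), coloured by group, with the mean of each group as a black bar and 1 TPM as a dotted line. Acta2 and Actg2 were lowest in -LIF-ESCs, Tagln, Cnn1, Lmod1 and Tpm1 were lowest in LIF-ESCs, and in each gene both OSM-ESCs points lay above both LIF-ESCs points.

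Acta2 codes for smooth muscle alpha actin, the main actin of vascular smooth muscle and myofibroblasts, and lies on chromosome 19 of GRCm38 from 34241090 to 34255590 on the minus strand. It stood at 31.0 and 30.3 TPM without cytokine, 225 and 227 with LIF and 368 and 381 with OSM. No groups overlapped, and the replicates of each group lay close together. The means of the groups were 30.7 ± 0.534, 226 ± 1.04 and 375 ± 9.65 TPM (SD, n = 2 each). Against -LIF-ESCs this was 7.36-fold with LIF, with a log2 fold change of 2.84 (SE 0.035, adjusted p = 1.54e-06 in limma), and 12.2-fold with OSM, with 3.57 (adjusted p = 9.19e-07). Rescaled by the median ratio, the log2 fold changes were 2.67 and 3.38.

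Actg2 codes for smooth muscle gamma actin, the main actin of gut smooth muscle, and lies on chromosome 6 from 83512905 to 83536265. It was at 0.397 and 0.621 TPM without cytokine, 13.6 and 14.9 with LIF and 19.8 and 22.3 with OSM. The -LIF-ESCs values rest on 7 and 9 recovered reads, against 199 and 209 with LIF and 311 and 421 with OSM, so the gene was nearly absent without a cytokine and low but well measured with one. Its means were 0.509 ± 0.158, 14.3 ± 0.889 and 21.0 ± 1.78 TPM (SD, n = 2 each). The fold in TPM was 28.0 with LIF and 41.3 with OSM, and on the log2(TPM + 1) scale, which understates changes of low genes, the log2 fold changes were 3.34 and 3.87 (SE 0.111 each).

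The other actins moved differently. The skeletal actin Acta1 was at 114 and 116 TPM without cytokine, 6.18 and 6.71 with LIF and 8.18 and 8.53 with OSM, with log2 fold changes of -3.96 and -3.63 (adjusted p = 2.05e-06 and 2.29e-06 in limma). Without a cytokine there was thus more Acta1 than Acta2, and with either cytokine more Acta2. The Acta2-to-Acta1 ratio of TPM within a library was 0.273 and 0.26 without cytokine, 36.4 and 33.8 with LIF and 44.9 and 44.7 with OSM. The cardiac actin Actc1 was at 12.8 and 12.3 TPM in -LIF-ESCs and at no more than 0.255 TPM in the other 4 libraries. Among the cytoplasmic actins, Actb was at 1420 to 1633 TPM in all libraries and was not called. Actg1 fell by 1.76 and 1.65 on the log2 scale (adjusted p = 2.96e-06 and 2.91e-06).

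In the summed TPM of the 6 actin genes, Acta2 made up 0.698% and 0.67% without cytokine, 8.52% and 8.81% with LIF and 12.5% and 13.3% with OSM. The sum itself was higher in -LIF-ESCs, at 4450 and 4524 TPM, than in LIF-ESCs, at 2642 and 2572, or OSM-ESCs, at 2938 and 2863. Acta2 thus took a larger share of a smaller actin pool in the groups with a cytokine, and Actg2 stayed under 1% of the pool in every library, with a highest share of 0.779%. Most of the pool was cytoplasmic actin in every library. Actg1 held 64.5% and 63.5% of it in -LIF-ESCs, and Actb held 53.6% to 58.0% in the other groups.

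**Figure D2:**
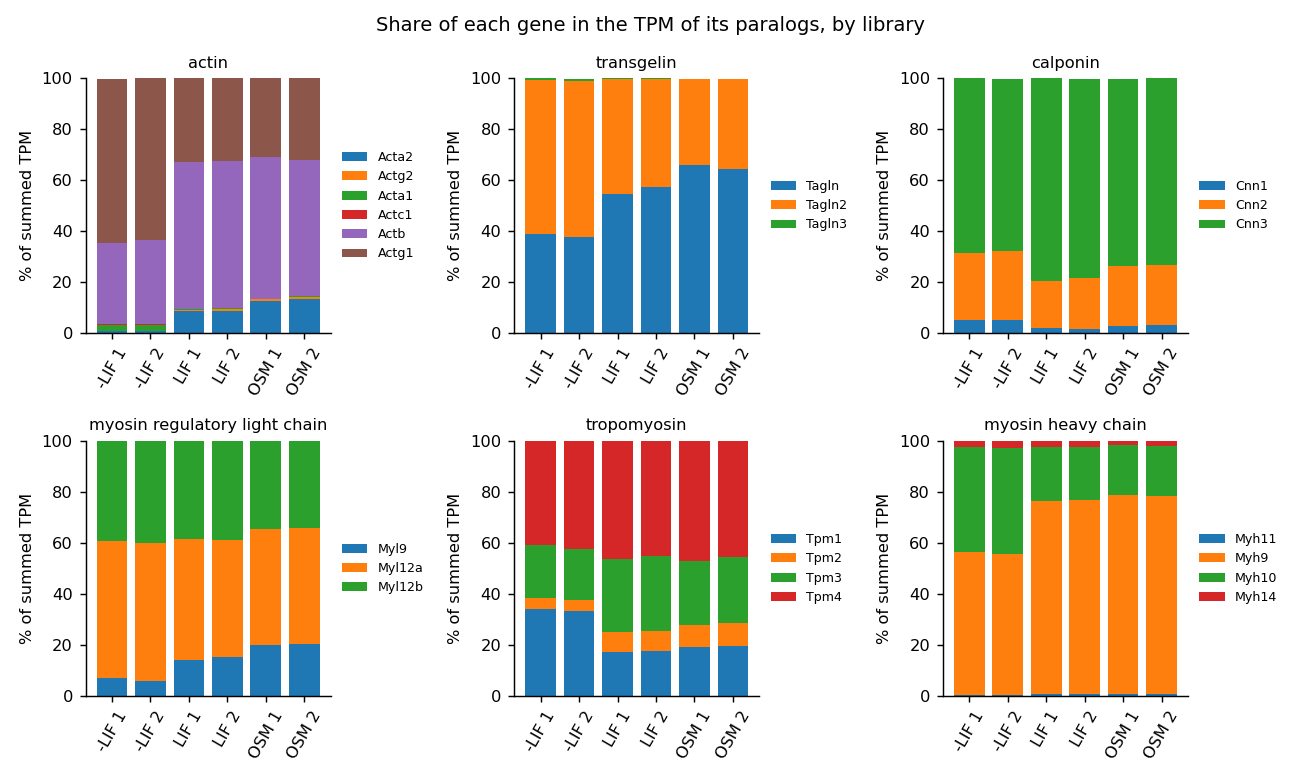
Share of each gene in the summed TPM of its paralogs (stacked bars, percent) in the 6 libraries, for the actin, transgelin, calponin, myosin regulatory light chain, tropomyosin and myosin heavy chain genes. Acta2 runs from under 1% to 13.3% of actin TPM and Tagln from 37.7% to 66.1% of transgelin TPM, while Myh11 stays under 1% of myosin heavy chain TPM.

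Tagln codes for transgelin (SM22), an actin cross-linking protein that is among the earliest genes expressed in smooth muscle cells, and lies on chromosome 9 from 45929619 to 45936058. Its level was 365 and 343 TPM without cytokine, 165 and 171 with LIF and 282 and 277 with OSM. The order of the groups was therefore not that of Acta2: -LIF-ESCs were highest, OSM-ESCs lay between, and the groups did not overlap. With means of 354 ± 15.3, 168 ± 4.55 and 279 ± 3.61 TPM (SD, n = 2 each), Tagln fell by 1.07 on the log2 scale in LIF-ESCs (SE 0.042, adjusted p = 2.26e-05 in limma). In OSM-ESCs it fell by 0.34 (adjusted p = 0.00112), which passed the test but not the fold limit. Rescaled, the log2 fold changes were -1.24 and -0.53. Tagln overlaps the end of Pcsk7 and an antisense gene model in the annotation, and without a stated strand setting their reads cannot be told apart from its own.

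The transgelin pool shrank around Tagln. Tagln2, the form of non-muscle cells, was at 569 and 558 TPM in -LIF-ESCs and 127 to 152 TPM in the other 4 libraries, with log2 fold changes of -2.09 in LIF-ESCs and -1.93 in OSM-ESCs (adjusted p = 5.63e-06 and 5.89e-06 in limma). Tagln3, the neuronal form, had log2 fold changes of -2.04 and -2.28. As a result, the share of Tagln in the transgelin TPM was higher with a cytokine although its own level was lower. It was 38.8% and 37.7% without cytokine, 54.7% and 57.2% with LIF and 66.1% and 64.5% with OSM.

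The Acta2-to-Tagln ratio sets both genes side by side within a library. It was 0.0851 and 0.0883 without cytokine, 1.36 and 1.32 with LIF and 1.30 and 1.38 with OSM. The LIF-ESCs and OSM-ESCs ratios overlapped, so the excess of Acta2 over Tagln separated cells with a cytokine from cells without one, and LIF did not separate from OSM in it.

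Cnn1 codes for calponin 1, an actin-bound inhibitor of the myosin ATPase found mainly in differentiated smooth muscle, and lies on chromosome 9 from 22099216 to 22109630. It was at 24.3 and 23.8 TPM without cytokine, 6.23 and 5.83 with LIF and 10.5 and 11.0 with OSM. As for Tagln, -LIF-ESCs were highest and LIF-ESCs lowest, with no overlap. The means were 24.1 ± 0.353, 6.03 ± 0.282 and 10.7 ± 0.359 TPM (SD, n = 2 each), and the log2 fold changes were -1.84 (SE 0.062, adjusted p = 1.44e-05) in LIF-ESCs and -1.10 (adjusted p = 6.22e-05) in OSM-ESCs in limma. Cnn1 was a minor calponin in every library, at 1.66% to 5.11% of the calponin TPM, of which the widely expressed Cnn3 made up 67.7% to 79.6%. Cnn2 and Cnn3 were not called, with log2 fold changes of -0.92 and -0.24 in LIF-ESCs.

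Lmod1 codes for leiomodin 1, which nucleates actin filaments in smooth muscle, and lies on chromosome 1 from 135324807 to 135368065. It was at 4.23 and 5.20 TPM without cytokine, 1.81 and 2.36 with LIF and 3.48 and 3.13 with OSM, on 67 to 191 recovered reads. The 3 groups stood in the order of Tagln and Cnn1 without overlap, at low levels. Its log2 fold changes were -0.89 (SE 0.144, adjusted p = 0.003) and -0.40 (adjusted p = 0.0512) in limma, and it was called in neither comparison. Its LIF value crossed the fold limit, and the gene was called lower, after rescaling by the median ratio (-1.02), with a pseudocount of 0.1 (-1.14), with voom (-1.30), and without -LIF-ESCs replicate 1 (-1.01) or LIF-ESCs replicate 2 (-1.02). Among the leiomodin and tropomodulin genes, Lmod1 took 14.4% and 18.3% of the TPM without cytokine, 5.5% and 7.31% with LIF and 9.91% and 9.51% with OSM, and the widely expressed Tmod3 took the largest share in every library, 46.5% to 56.2%.

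Tropomyosins lie along the actin filament and set which myosins and binding proteins reach it. Tpm1, on chromosome 9 from 67022590 to 67049406, was at 278 and 289 TPM without cytokine, 86.6 and 86.8 with LIF and 118 and 115 with OSM. It was the second most abundant of the 10 genes in -LIF-ESCs and was lowest in LIF-ESCs, with log2 fold changes of -1.70 (SE 0.036, adjusted p = 4.45e-06) and -1.27 (adjusted p = 8.19e-06) in limma. Tpm2, on chromosome 4 from 43514711 to 43523765, was at 35.4 and 37.4, 40.3 and 38.2, and 52.8 and 55.1 TPM in the same order. It stood highest in OSM-ESCs, at 0.56 on the log2 scale (adjusted p = 0.000362), under the fold limit. Its LIF-ESCs value of 0.11 (adjusted p = 0.121) turned to -0.06 when the libraries were rescaled, so no direction is given for it.

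The tropomyosin pool was led by Tpm4 and Tpm3, which are not confined to muscle, in the groups with a cytokine. Tpm1 made up 33.9% and 33.4% of it without cytokine, 17.0% and 17.6% with LIF and 19.1% and 19.4% with OSM. The shares of Tpm2 were smaller, at 4.33% and 4.31%, 7.92% and 7.76%, and 8.55% and 9.30% in the same order. Both genes make muscle and non-muscle isoforms from different promoters and exons, and values per gene cannot tell those isoforms apart.

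Myl9 codes for the regulatory light chain of smooth muscle myosin and lies on chromosome 2 from 156775420 to 156781658. It was at 31.6 and 26.6 TPM without cytokine, 43.0 and 47.7 with LIF and 76.5 and 76.1 with OSM. The groups stood in that order without overlap, and the -LIF-ESCs and LIF-ESCs replicates were less close than those of OSM-ESCs. Means were 29.1 ± 3.53, 45.4 ± 3.31 and 76.3 ± 0.257 TPM (SD, n = 2 each). The log2 fold change was 0.62 in LIF-ESCs (SE 0.093, adjusted p = 0.00217), under the fold limit, and 1.36 in OSM-ESCs (adjusted p = 0.000116 in limma). Its paralogs Myl12a and Myl12b, the light chains of non-muscle myosin, went the other way, with log2 fold changes of -0.79 and -0.61 with LIF and -0.54 and -0.49 with OSM, none past the fold limit. The share of Myl9 in the regulatory light chain TPM was 6.81% and 5.64% without cytokine, 13.9% and 15.2% with LIF and 19.7% and 20.3% with OSM.

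The motor and its kinase were close to absent. Myh11, the smooth muscle myosin heavy chain (chromosome 16, 14194535 to 14291372), was at 0.396 and 0.213 TPM without cytokine, 0.689 and 0.746 with LIF and 1.16 and 0.979 with OSM. Mylk, the light chain kinase (chromosome 16, 34745210 to 35002420), was at 0.200 and 0.434, 0.588 and 0.480, and 0.643 and 0.665 TPM in the same order. Neither reached 1 TPM in 2 libraries, so neither was tested, and the exon lengths of both give no whole reads, so the reads behind them are unknown. The myosin heavy chain of these cells was that of non-muscle cells: Myh9 was at 110 to 149 TPM, and within a library its TPM was 113 to 687 times that of Myh11. Myh10, another non-muscle heavy chain, fell by 1.81 in LIF-ESCs and by 1.74 in OSM-ESCs on the log2 scale (adjusted p = 6.61e-06 and 6.72e-06 in limma).

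**Figure D3:**
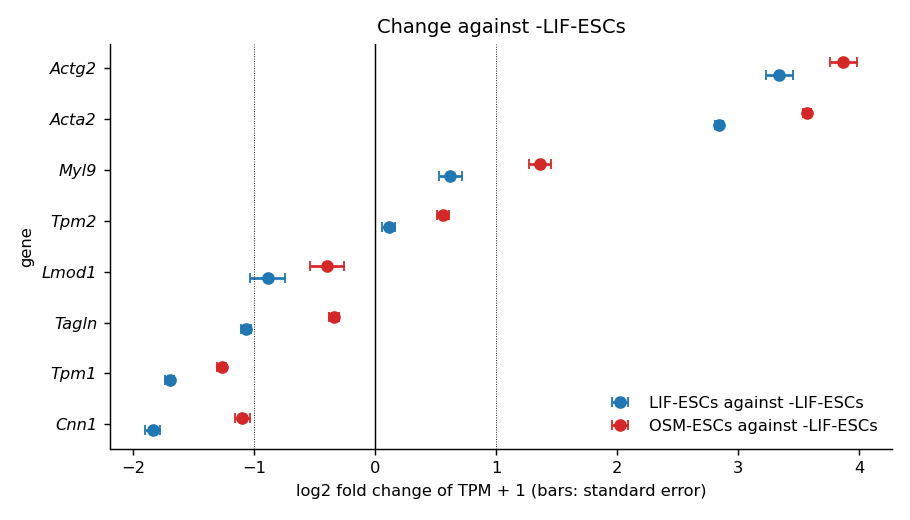
Log2 fold change (TPM + 1) of the 8 contractile genes tested, in LIF-ESCs (blue) and OSM-ESCs (red) against the same -LIF-ESCs libraries. Bars are standard errors from limma, and dotted lines mark the fold limit of 1. Actg2 and Acta2 lie to the right of it in both groups, Cnn1 and Tpm1 to the left in both, Tagln in LIF-ESCs and Myl9 in OSM-ESCs.

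The comparison of OSM-ESCs with LIF-ESCs is the one on which the genes were chosen, and its values are a description. In all 10 genes both OSM-ESCs libraries lay above both LIF-ESCs libraries, as they did in 26.3% of all genes tested, and nothing is read from that count. In TPM the OSM-ESCs mean was 1.78 times the LIF-ESCs mean for Cnn1, 1.68 times for Myl9, 1.66 times for Acta2 and for Tagln, 1.59 times for Lmod1, 1.49 times for Myh11, 1.48 times for Actg2, 1.38 times for Tpm2, 1.35 times for Tpm1 and 1.23 times for Mylk. The 4 genes that led to the choice were thus nearly alike in size, with log2 differences of 0.73 for Acta2 and Tagln and 0.74 for Cnn1 and Myl9. Beside them, the same genes in OSM-ESCs stood at log2 fold changes of 3.57 (Acta2), 1.36 (Myl9), -0.34 (Tagln) and -1.10 (Cnn1) against -LIF-ESCs. For Tagln the distance between the cytokines was thus larger than that between OSM-ESCs and -LIF-ESCs, and for the other 3 genes it was smaller. Since the RNA came from whole cultures, more cells that express a gene and more of its RNA in each cell cannot be told apart.

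The order of the 10 levels in TPM differed between cells with and without a cytokine. In -LIF-ESCs Tagln stood first and Tpm1 second, followed by Tpm2, Acta2, Myl9, Cnn1, Lmod1, Actg2, Mylk and Myh11, and the libraries of 3 neighbouring pairs overlapped (Acta2 with Myl9, Actg2 with Mylk, Mylk with Myh11). In LIF-ESCs and in OSM-ESCs alike Acta2 stood first, before Tagln, Tpm1, Myl9, Tpm2, Actg2, Cnn1, Lmod1, Myh11 and Mylk. No neighbours overlapped in those groups.

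Genes of like pattern over the 6 libraries were those with the smallest root mean square difference in log2(TPM + 1) after centring each gene. The 8015 genes compared had a mean of at least 10 TPM. The 10 contractile genes and gene models with only a Gm, Rik or microRNA symbol were left out of them. For Acta2 the 5 nearest genes were Igfbp7 (0.0851), Timp2 (0.0978), S100a4 (0.113), Col1a2 (0.126) and Fosl1 (0.139). Igfbp7, which codes for a secreted growth factor binding protein, was at 9.57 and 10.5 TPM without cytokine, 90.0 and 82.2 with LIF and 131 and 142 with OSM. For Tagln they were Rpl27-ps2 (0.097), Col5a1 (0.105), Phldb2 (0.12), Ier5 (0.14) and Cnn2 (0.141). Among the contractile genes compared, Actg2 was nearest to Acta2 (0.222) and Cnn1 nearest to Tagln (0.363), followed by Tpm1 (0.392), while Acta2 and Tagln were 1.84 apart. The points share their libraries, and the measure is a description.

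Other genes of smooth muscle were listed to see whether the tissue's wider program was present. Of 17 such genes with values 13 were tested. With LIF 1 was called higher and 2 lower, and with OSM 1 higher and 1 lower. For this list and those below, 13.3% of all genes tested were called higher and 8.09% lower with LIF. With OSM these shares were 14.2% and 7.86%. As for Actg2, some listed genes passed the minimum of 1 TPM only through the groups where they were high, so the filter favoured their direction. The intermediate filament gene Des was at 21.2 and 20.8 TPM in -LIF-ESCs and 9.12 to 10.7 TPM in the other 4 libraries, with a log2 fold change of -1.11 in LIF-ESCs (adjusted p = 8.87e-05 in limma). Smtn, which codes for smoothelin, was at 33.9 and 31.6 TPM in -LIF-ESCs and 16.9 to 19.6 in the others, under the fold limit. Kcnmb1, a potassium channel subunit typical of smooth muscle, was at no more than 0.256 TPM, and Synm, a partner of desmin, at 1.48 to 3.82 TPM. Pdlim3, which codes for a Z-line protein, was at 8.89 and 9.96 TPM in -LIF-ESCs and at most 0.192 TPM elsewhere. Pgm5 rose by 1.41 and 1.68 on the log2 scale, from no more than 0.171 TPM in -LIF-ESCs. Both passed the minimum only through the groups where they were high, so of these calls only Des in LIF-ESCs did not depend on the filter. The markers set as defining for smooth muscle were thus mixed. Myh11, Kcnmb1 and the coactivator Myocd were at or near 1 TPM or below, as was Mylk, which was not set as such a marker. Synm and Lmod1 were low, at no more than 5.20 TPM. Des, Smtn and Cnn1 were expressed, the last at 5.83 to 24.3 TPM, and all 3 were highest in -LIF-ESCs. The 10 genes are therefore called by their names and not taken as a sign of smooth muscle cells.

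Regulators of smooth muscle genes were compared between OSM-ESCs and LIF-ESCs as well. In limma 0 of 12 tested passed an adjusted p under 0.05, as 0.463% of all genes tested did as higher and 0.129% as lower. At an unadjusted p under 0.05, 3 were higher and 1 lower with OSM, beside 9.80% and 5.50% of all genes. With voom on recovered reads 2 of 10 passed the adjusted p as higher and 1 as lower, beside 5.26% and 2.56% of all genes. Srf was at 41.3 and 39.2 TPM without cytokine, 35.2 and 34.6 with LIF and 35.4 and 39.3 with OSM, with log2 fold changes of -0.20 and -0.11. Myocd was at 0.0345 to 0.302 TPM. The myocardin-related factors, listed under the symbols Mkl1 and Mkl2, were at 10.4 to 15.3 and 4.35 to 5.53 TPM and were not called. Klf4, a pluripotency factor known to repress smooth muscle genes, was at 51.2 and 49.7 TPM without cytokine, 361 and 357 with LIF and 325 and 326 with OSM (log2 fold changes 2.81 and 2.67, adjusted p = 1.42e-06 and 1.35e-06 in limma). Against -LIF-ESCs, 4 of the 12 were called higher and 1 lower with LIF, and 5 higher and 2 lower with OSM. Of those called higher, Prrx1 and Gata6 passed the minimum only through the libraries with a cytokine. Prrx1, a mesenchymal homeobox gene, rose by 3.98 and 4.36, and Elk3, a partner of SRF, by 1.71 and 2.16.

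Genes of transforming growth factor beta signaling, which induces smooth muscle genes in many mesenchymal cells, were called higher in 6 of 16 and lower in 1 with LIF, and in 8 and 1 with OSM. Their median log2 fold change was 0.74 and 0.88. Of those called higher, Acvrl1 and Ltbp2 passed the minimum only through the libraries with a cytokine. The ligand Tgfb2 had log2 fold changes of -3.39 and -3.04, and Tgfb3 rose by 1.39 and 1.89. The receptor Tgfbr2 rose by 1.30 and 1.65.

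Actin cytoskeleton and early genes of the kind SRF controls stood nearest in function to the 10 genes. With LIF 5 of 22 tested were called higher and 2 lower, and with OSM 7 higher and 1 lower, at median log2 fold changes of 0.04 and 0.33. Csrp1, an actin-bundling LIM protein gene expressed in smooth muscle, followed Tpm1, at 270 and 277 TPM without cytokine, 81.5 and 83.3 with LIF and 105 and 104 with OSM (log2 fold changes -1.72 and -1.38, adjusted p = 3.69e-06 and 5.89e-06 in limma). Thbs1, a secreted glycoprotein gene, rose by 2.07 and 2.55, and Filip1l by 3.31 and 3.66. Filip1l passed the minimum only through the libraries with a cytokine.

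Set against LIF, OSM gave 7 of these 22 genes as higher at an adjusted p under 0.05 and 1 as lower, against 0.463% and 0.129% of all genes tested. The 7 were Zyx and Thbs1 (both 0.48 on the log2 scale), Cald1 (0.47), Ctgf (0.42), Flna (0.37), Cyr61 (0.36) and Csrp1 (0.34), and the lower gene was Fos (-0.65), with adjusted p from 0.0239 to 0.0371 in limma. Zyx and Flna code for actin-binding proteins of adhesions and stress fibers, and Cald1 for caldesmon, a partner of calponin. These calls depend on the fit. In limma with only these groups, with a replicate block, without a trend in the spread or with any 1 library left out, 0 and 0 passed, while 17 and 1 had an unadjusted p under 0.05 with only these groups fitted. With voom on recovered reads 14 and 1 passed. The list was drawn up with earlier results of these data known and is no independent evidence of a direction.

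Markers of other cell types moved beside the contractile genes. Fibroblast markers were called higher in 20 of 24 tested in both comparisons, beside 13.3% of all genes tested with LIF and 14.2% with OSM. Of the 20, Col3a1, Col6a3, Pdgfra, Lum, Dcn, Postn, Lox, Ddr2 and Prrx1 were under 1 TPM in both -LIF-ESCs libraries. They passed the minimum only through the libraries with a cytokine, so the filter favoured their direction. The summed TPM of the markers was 476 and 463 without cytokine, 898 and 883 with LIF and 1212 and 1185 with OSM. Not all markers stood in the order of Acta2. Sparc, Mmp2 and Col5a1 had the order of Tagln, with means of 316, 39.3 and 42.9 TPM without cytokine, 220, 23.0 and 23.9 with LIF and 269, 31.6 and 36.1 with OSM, under the fold limit in both comparisons. The defining markers Col1a1, Col1a2, Col3a1 and Thy1 were lowest in -LIF-ESCs and highest in OSM-ESCs without overlap, and Pdgfra overlapped between LIF-ESCs and OSM-ESCs. Col1a1 was at 25.0 and 22.8 TPM without cytokine, 86.4 and 88.6 with LIF and 134 and 138 with OSM, and Thy1 was at 7.96 and 5.78, 46.9 and 46.7, and 63.8 and 64.1. Col1a2 had log2 fold changes of 2.80 and 3.29, Col3a1 of 3.59 and 3.99 and Pdgfra of 1.65 and 1.73. Set against LIF, OSM gave 6 of the 24 as higher at an adjusted p under 0.05 in limma, Col1a1 among them (0.63, adjusted p = 0.0297). This became 0 without a trend, with only these groups fitted (22 at an unadjusted p under 0.05), with a replicate block or with any 1 library left out, and 21 with voom. Prrx1 stands in this list and among the regulators.

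Of the cardiac and skeletal muscle markers, 9 of 12 tested were called lower in each comparison, as Cnn1 and Tpm1 were. Of all genes tested, 8.09% with LIF and 7.86% with OSM were called lower. Among the called markers, Actc1, Myh6, Myl2, Myl4, Myh3 and Tnnt3 were under 1 TPM in every library with a cytokine, so the filter favoured their direction. Acta1, Tnnc1 and Myl7 were called lower in both comparisons without that limit. Summed over the 22 genes the markers came to 192 and 188 TPM without cytokine, 20.2 and 22.3 with LIF and 22.5 and 24.5 with OSM. Acta1 was the larger part of that sum in -LIF-ESCs but not in the libraries with a cytokine. Tnnc1, a troponin of heart and slow muscle, was at 17.7 and 18.4 TPM in -LIF-ESCs and 1.06 to 2.15 in the others. The defining markers were low throughout: Myh6 was at 2.82 and 3.21 TPM in -LIF-ESCs and no more than 0.677 elsewhere, Nkx2-5 reached 1.27 TPM, Tnnt2 0.57 TPM and Myog 0.354 TPM, and Myod1 was listed at 0 in all libraries with a cytokine.

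Pericyte and endothelial markers were few, with 4 of 8 tested, of which 1 was called lower with LIF and 1 higher and 1 lower with OSM. The higher gene, Cspg4, passed the minimum only through the libraries with a cytokine. Notch3, a receptor of mural cells, was the lower gene (-1.53 and -1.29), Rgs5 reached 1.07 TPM and Cdh5 0.358 TPM, and Pecam1, which mESCs also express, stayed at 25.8 to 37.9 TPM. The pluripotency genes Pou5f1, Sox2 and Nanog were at 252 TPM or more in every library, and of 8 genes of that list 3 were called higher and 0 lower in each comparison. Pou5f1 was called higher (log2 fold changes 1.09 and 1.12). Nanog went the other way, from 436 and 431 TPM without cytokine to 289 and 291 with LIF and 270 and 252 with OSM, at log2 fold changes of -0.58 and -0.73 that passed the test in limma (adjusted p = 0.000144 and 6.37e-05) but not the fold limit. For Nanog the study reports higher RNA and protein with either cytokine, the reverse of these TPM values. Set against LIF, OSM gave 0 of the 8 pluripotency genes as higher or lower at an adjusted p under 0.05 in limma. At an unadjusted p under 0.05, 0 were higher and 5 lower, beside 9.80% and 5.50% of all genes. With voom 0 and 5 passed the adjusted p, beside 5.26% and 2.56%. The part that cells of another type in the cultures had in the values of the contractile genes was not tested.

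**Figure D4:**
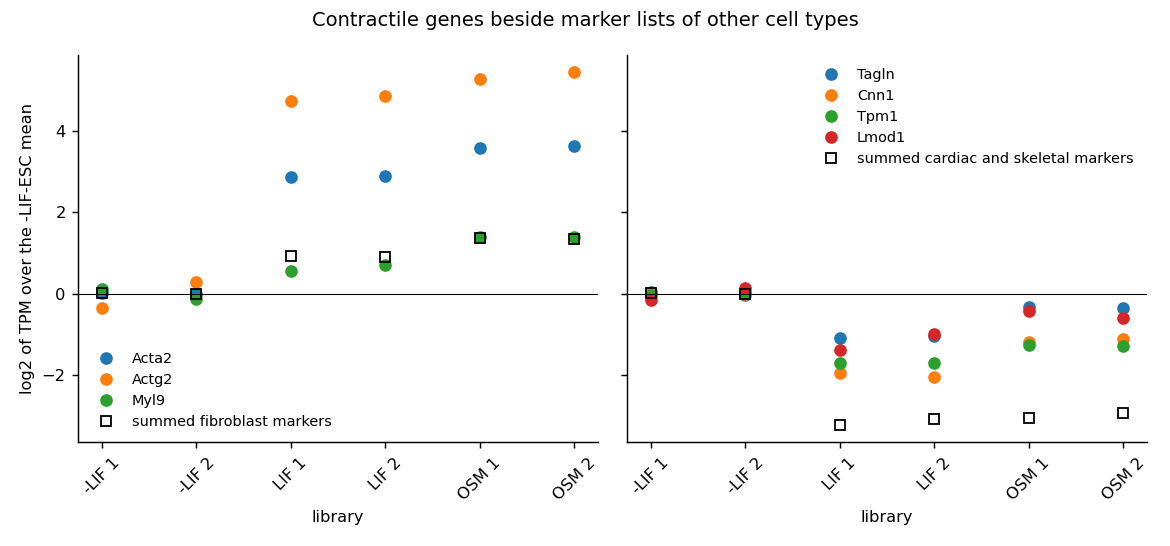
Log2 of TPM over the -LIF-ESCs mean in the 6 libraries, for Acta2, Actg2 and Myl9 beside the summed fibroblast markers (left) and for Tagln, Cnn1, Tpm1 and Lmod1 beside the summed cardiac and skeletal muscle markers (right). On the left all points of LIF-ESCs and OSM-ESCs lie above 0, and on the right all lie below 0 with OSM-ESCs above LIF-ESCs.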

How the data were processed

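The authors purified polyA RNA from mESCs at P10 and deposited 1 table of TPM values for the 6 libraries. Trimmomatic, HISAT2, featureCounts and the mm10 build are named in the submitters' processing notes. Versions, annotation, strand setting and the step from counts to TPM are not given in the sources used here. The study's own test was DESeq2 on counts, which TPM does not allow.

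Exon lengths of GENCODE M21 matched 28405 of 28584 symbols once, and TPM times length gave whole reads (within 0.02 of a read) in all libraries for 26955 genes (94.9%). These reads give depth and a voom alternative. They cover 7 of the 10 genes, and the values of Acta2 were rounded for voom.

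The log2(TPM + 1) values of 18556 genes, those that reach 1 TPM in 2 or more libraries, were fitted with limma 3.58.1 in R 4.3.3 (lmFit, then eBayes with a trend) in 1 model of the 3 groups (3 residual degrees of freedom, 5.3 with the prior). P-values were adjusted over all genes after Benjamini and Hochberg, and the limits for a call are those of the study. The fit was tested on simulated data. SE is the standard error of a log2 fold change. Python 3.11.15 with pandas 2.3.3 and numpy 2.4.6 made the tables, and matplotlib 3.10.9 the plots.

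The members and lists were chosen with earlier results of these data known. Named are all 10 genes and their paralogs, defining markers, Srf, Myocd, Mkl1, Mkl2 and Klf4, the 3 highest and 3 lowest called genes of a list, and the 5 genes most like Acta2 and Tagln. Other genes named, among them Tgfbr2 and Zyx, were chosen after their values were seen. Some listed genes, and 1 list, are not reported here. Lmod2, Mylk3, Mylk4, Pln, Abcc9 and Emcn were not analysed here. Alternatives were a pseudocount of 0.1, no filter or 5 TPM, no trend, separate fits for each pair of groups, a replicate block, libraries rescaled by the median ratio, no fold limit, voom and each library left out. Their use on the other lists was decided after seeing the data.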

Additional observations from a re-analysis of the deposited data

How the results depend on the processing

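The alternatives were counted with Actg2 included, whose direction the filter favoured, so these counts are not those of the 7 genes above. They kept within 1.5 times of the main fit with Actg2 (2 higher and 3 lower with LIF, 3 and 2 with OSM) in 60 of 60 alternatives. That limit is loose for such small counts, as it lets 2 become 3 and 3 become 4. The lower count with LIF became 4 in the 5 alternatives that called Lmod1. With no fold limit, Myl9 and Lmod1 in LIF-ESCs and Tagln and Tpm2 in OSM-ESCs passed as well. Of 222 log2 fold changes against -LIF-ESCs under an alternative, 215 kept their direction and their side of an adjusted p of 0.05. With the fold limit added, 217 of 222 calls were kept, and the 5 others were Lmod1 in LIF-ESCs, called lower at -1.01 to -1.30. Tpm2 in LIF-ESCs changed sign, to -0.06 after rescaling by the median ratio and -0.02 with voom. Lmod1 in OSM-ESCs passed 0.05 in 5 alternatives. With a pseudocount of 0.1 the OSM-ESCs to LIF-ESCs differences grew for Cnn1 (0.82), Lmod1 (0.65), Mylk (0.26) and Myh11 (0.51) on the log2 scale. With a replicate block, the calls were 2 higher and 3 lower with LIF and 3 higher and 2 lower with OSM (Actg2 included), the counts found without it. Same-numbered replicates did not deviate together (r of -0.043, -0.023 and 0.027 over 18556 genes). This cannot show whether they were processed as pairs, which the labels do not say. The other lists' counts moved by over 1.5 times in 104 of 792 alternatives. For OSM-ESCs against LIF-ESCs, 86 genes were higher and 24 lower at an adjusted p under 0.05. With only these groups fitted or with a replicate block these counts were 0 and 0 in limma (1753 and 906, and 1640 and 837, at an unadjusted p under 0.05), without a trend 8 and 4, and with voom 970 and 472. The cause was not tested. Only 2 libraries a group limit the precision, and depth limits Actg2 in -LIF-ESCs (7 and 9 reads).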
